A study of Homo sapiens with 12 samples.

Results

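Tight junctions are the seals between neighbouring epithelial cells. Claudins span the membrane and set which ions and molecules pass, occludin and junctional adhesion molecules lie beside them, and ZO-1 and related plaque proteins tie this membrane belt to actin. In the liver these junctions close the bile canaliculus, the channel that hepatocytes form between them, and keep bile apart from blood. The genes followed here were the claudins CLDN1, CLDN2, CLDN3, CLDN4, CLDN7 and CLDN14, occludin (OCLN), junctional adhesion molecule A (F11R) and ZO-1 (TJP1). These 9 genes were taken by name, through the RefSeq transcript that the array file gives for each probe, and were read by 12 of the 50599 probes of the array.

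Expression was measured on 12 one-colour arrays of HA22T and PLC5, both established human hepatocellular carcinoma lines, with 3 arrays in each of 4 groups. Each line was transfected for 48 h with 10 nM of either a control siRNA that has no target (siControl) or a pool of siRNAs against GALNT1 (siGALNT1), a Golgi enzyme that starts O-glycan chains on proteins. No untransfected cells were analysed here, each line is a single cell line, and siGALNT1 is a single pool. The labels number the replicates but do not say that they came from separate cultures, so the p-values measure the spread between these samples, which may be technical. Levels are log2 of the scanner's processed signal minus the 75th percentile of the same array, so that 0 is the signal at that percentile, and a level belongs to its probe and was not set against the level of another probe. A gene was called when its adjusted p in limma was below 0.05 after adjustment over all counted probes, those that the scanner software marked as well above background on 3 or more of the 6 arrays compared.

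Replicate arrays correlated at r = 0.968 to 0.988 over the probes well above background on all 12 arrays. Each array had 36679 to 48873 spots well above background out of 58717. The knockdown was read first. The brighter GALNT1 probe stood at 1.32, 0.75 and 0.85 on the HA22T siControl arrays and at -3.15, -3.68 and -5.55 on the siGALNT1 arrays, a log2 difference of -5.10 ± 0.61 (SE, adjusted p = 0.0708), and in PLC5 its difference was -3.72 ± 0.61 (adjusted p = 1.00). The dimmer probe gave -4.75 ± 0.49 (adjusted p = 0.0305) and -3.03 ± 0.49 (adjusted p = 1.00). For both probes, all siGALNT1 arrays lay below all siControl arrays in both lines. With siGALNT1 in HA22T the brighter probe was well above background on 2 of 3 arrays and the dimmer on 1 of 3. In PLC5 both were so on 3 of 3. The sizes in HA22T thus rest in part on values near background. Hepatocyte markers differed between the lines: in PLC5 all 8 were well above background on all 3 arrays of each group, whereas in HA22T 4 were with siControl and 3 with siGALNT1, and TTR was not well above background on any siGALNT1 array. The summed level of the 8 markers was 6.42 to 7.39 in PLC5 and 1.19 to 1.50 in HA22T, and whether the differences in junction genes are part of this wider one was not tested. Of the other cell types checked, leukocyte markers summed to 4.46 to 5.56 in PLC5 and 4.65 to 6.05 in HA22T, bile duct markers to 6.69 to 7.20 and 7.05 to 7.65, endothelial markers to 2.02 to 2.56 and -1.27 to -0.55, and fibroblast markers to -3.84 to -3.06 and -4.06 to -2.96. Each sum follows its brightest probe, and single markers differed more: CD14 averaged 0.89 in HA22T and -2.97 in PLC5 with siControl, SOX9 -4.32 and -1.10, and PECAM1 -3.16 and 2.25, all called with both siRNAs. The part of these markers in the junction gene results was not tested. All 4 leukocyte markers were well above background on every array, and COL3A1, a fibroblast marker, on none. The leukocyte sum was mostly its PTPRC probe, which averaged 5.05 in HA22T and 5.10 in PLC5 with siControl. Whether that signal comes from PTPRC RNA was not tested, and it does not show that leukocytes were present. The bile duct and fibroblast sums each hold 3 of the 4 markers listed. As these are bulk samples, fewer cells that express a gene cannot be told apart from less of its RNA in each cell.

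Promoter sequence is shown for CLDN7, the member with the widest difference between the lines, and for CLDN3 and CLDN4, which lie next to each other on chromosome 7 with 0 annotated genes between them and which were called in opposite directions between the lines with siGALNT1. Each run holds the 250 bases before a RefSeq start on GRCh38.p14, written 5′ to 3′ along the gene. Capitals mark CAGGTG or its reverse complement CACCTG, the E-box that the repressors ZEB1 and SNAI1 are known to read, searched on both strands.
CLDN7, second window, chr17:7262479-7262728, minus strand: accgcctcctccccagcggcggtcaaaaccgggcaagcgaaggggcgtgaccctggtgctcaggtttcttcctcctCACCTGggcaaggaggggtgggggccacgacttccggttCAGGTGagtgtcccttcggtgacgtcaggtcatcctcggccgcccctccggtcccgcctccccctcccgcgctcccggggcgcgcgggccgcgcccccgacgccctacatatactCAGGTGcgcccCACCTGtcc
CLDN3, chr7:73770271-73770520, minus strand: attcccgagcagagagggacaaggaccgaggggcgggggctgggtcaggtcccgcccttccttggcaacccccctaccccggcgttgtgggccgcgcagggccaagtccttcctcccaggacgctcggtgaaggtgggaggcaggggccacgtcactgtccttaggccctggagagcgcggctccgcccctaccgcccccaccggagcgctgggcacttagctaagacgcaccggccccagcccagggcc
CLDN4, chr7:73830746-73830995, plus strand: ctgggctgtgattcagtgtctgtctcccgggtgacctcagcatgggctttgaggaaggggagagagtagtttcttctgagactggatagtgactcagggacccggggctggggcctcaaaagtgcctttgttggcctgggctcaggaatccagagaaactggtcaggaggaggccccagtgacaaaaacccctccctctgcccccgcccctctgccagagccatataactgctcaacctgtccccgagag
The CLDN7 window held 4 copies, at 174, 135, 20 and 9 bases before the start, none of them overlapping a GGGCGG or TATAAA motif or their reverse complements. Windows with any copy made up 17.5% of the 35116 promoter windows of the table, and windows with 4 or more made up 0.122%. The windows of CLDN3 and CLDN4 and the first window of CLDN7 held none. RefSeq windows were found for 8 of the 9 members, 16 in all, and 5 of them, belonging to OCLN, TJP1, CLDN7 and CLDN14, held a copy. These counts describe the letters of the windows and not binding.

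Between the lines, most claudins and F11R were lower in HA22T. With siControl, CLDN1, CLDN2, CLDN3, CLDN7 and F11R were called lower, 5 of 9 members, with none called higher, beside 26.6% of all 17417 genes called, 12.4% lower and 14.2% higher. With siGALNT1 the same 5 were called lower and CLDN4 was called higher, 6 of 9 members, beside 26.6% of 17201 genes called, 15% lower and 11.6% higher. The median log2 difference of the 9 members was -1.32 with siControl and -1.57 with siGALNT1, against 0.10 and 0.07 over all genes tested. OCLN, CLDN14 and TJP1 were not called with either siRNA.

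**Figure D1:**
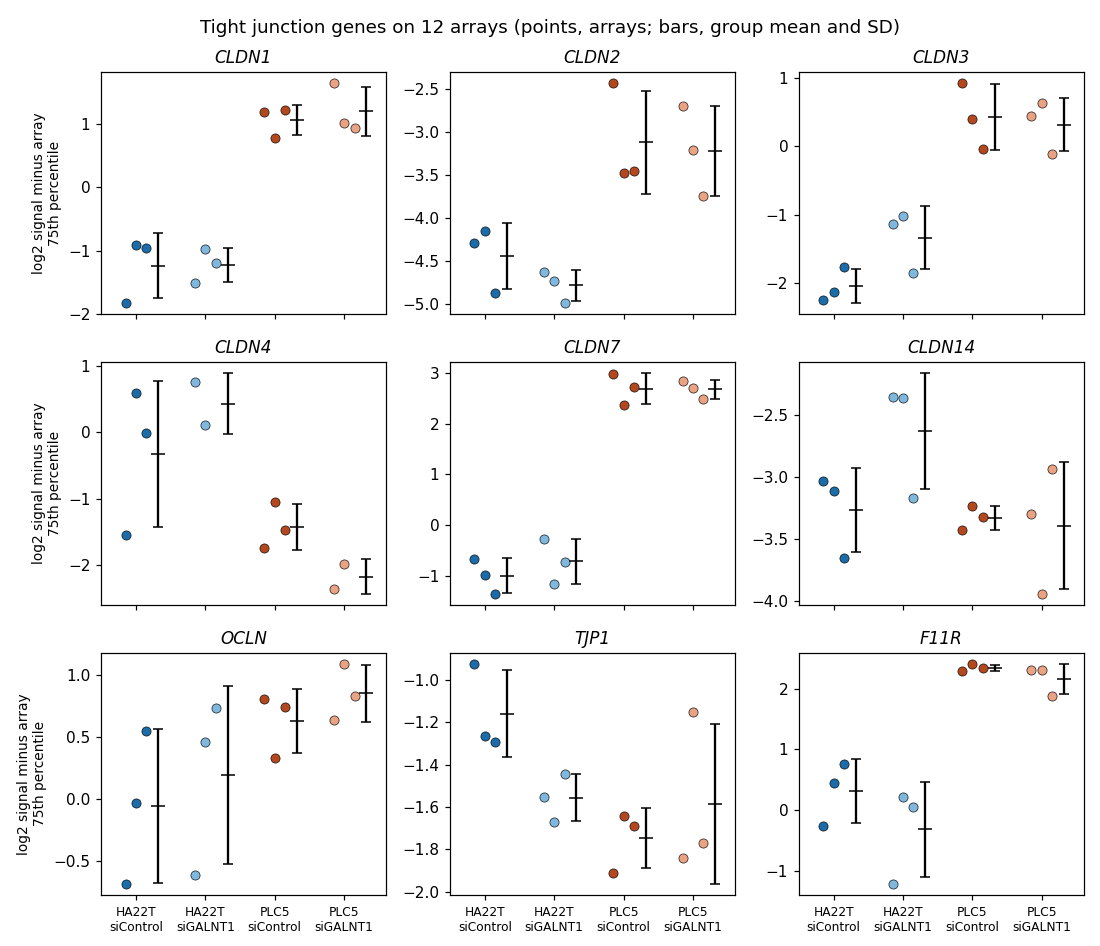
Level of each of the 9 tight junction genes on the 12 arrays, from its brightest probe (y axis, log2 signal minus the array's 75th percentile; each panel has its own range), by line and siRNA (x axis), with points for arrays and bars for the group mean and SD. In CLDN1, CLDN2, CLDN3, CLDN7 and F11R every HA22T array lies below every PLC5 array. CLDN4 has 2 points in each siGALNT1 group.

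CLDN7, a claudin that in many epithelia also lies along the lateral membrane, differed most. Its brighter probe read -0.66, -0.97 and -1.34 on the HA22T siControl arrays and 2.97, 2.36 and 2.72 on the PLC5 siControl arrays. With siGALNT1 it read -0.26, -1.15 and -0.72 in HA22T and 2.84, 2.70 and 2.47 in PLC5. Every HA22T array was below every PLC5 array, and arrays of one line lay close together whatever the siRNA. The log2 difference was -3.67 ± 0.30 (SE, adjusted p = 6.11e-06), or 12.7-fold lower in HA22T, with siControl and -3.38 ± 0.30 (adjusted p = 1.23e-05), or 10.4-fold lower, with siGALNT1. A second CLDN7 probe, of the same transcript, ranged from 0.92 to 1.17 on the PLC5 arrays and from -4.81 to -3.92 on the HA22T arrays, where it was well above background on 2 of 3 siControl and 1 of 3 siGALNT1 arrays. Its differences were wider, -5.44 ± 0.28 with siControl and -5.50 ± 0.28 with siGALNT1. Both probes thus gave the same direction and a different size.

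CLDN1, the claudin most generally needed for an epithelial seal and also an entry factor for hepatitis C virus, read -1.83, -0.91 and -0.96 in HA22T with siControl against 1.19, 0.79 and 1.22 in PLC5. With siGALNT1 the values were -1.51, -0.98 and -1.19 against 1.65, 1.01 and 0.94. The lines did not overlap under either siRNA. The difference was -2.30 ± 0.32 (SE, adjusted p = 0.00032), 4.91-fold lower in HA22T, with siControl and -2.43 ± 0.32 (adjusted p = 0.000229), 5.37-fold lower, with siGALNT1.

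CLDN3, another sealing claudin, read -2.24, -2.13 and -1.77 in HA22T and 0.92, 0.40 and -0.04 in PLC5 with siControl. With siGALNT1 the arrays read -1.13, -1.02 and -1.86 in HA22T and 0.44, 0.63 and -0.12 in PLC5. Again no HA22T array reached a PLC5 array. The difference was -2.48 ± 0.34 (SE, adjusted p = 0.000285) with siControl and -1.65 ± 0.34 (adjusted p = 0.00456) with siGALNT1. CLDN2, which forms a pore for cations and water, was also called lower in HA22T. It ranged from -4.99 to -4.15 on the 6 HA22T arrays, well above background on 2 of 3 siControl and 1 of 3 siGALNT1 arrays, and from -3.75 to -2.43 on the 6 PLC5 arrays. Its difference was -1.32 ± 0.37 (SE, adjusted p = 0.0236) with siControl and -1.57 ± 0.37 (adjusted p = 0.00978) with siGALNT1. With siControl the call was lost without HA22T siControl replicate 3 (-1.10, adjusted p = 0.0952) or without PLC5 siControl replicate 1 (-0.97, adjusted p = 0.0861). With the normexp background correction the differences were -0.78 (adjusted p = 0.0683) and -0.83 (adjusted p = 0.053), past the threshold with neither siRNA.

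CLDN4, the neighbour of CLDN3 and a claudin that in other epithelia limits the passage of sodium, lay the other way. It read -1.55, 0.59 and -0.02 in HA22T and -1.74, -1.05 and -1.47 in PLC5 with siControl, so that HA22T replicate 1 fell within the PLC5 range. The difference of 1.09 ± 0.51 (SE, adjusted p = 0.171) was not past the threshold, with an interval of -0.05 to 2.24 (95%). With siGALNT1 the spot was marked as non-uniform and left out on HA22T replicate 1 and PLC5 replicate 3, and the arrays that remained read 0.75 and 0.11 in HA22T and -2.35 and -1.99 in PLC5. These gave a difference of 2.60 ± 0.62 (adjusted p = 0.0152), 6.07-fold higher in HA22T. With the non-uniform spots kept it was 2.13 (adjusted p = 0.0201). The siGALNT1 call was lost without HA22T siGALNT1 replicate 2 (2.28, adjusted p = 0.0862), PLC5 siGALNT1 replicate 1 (2.42, adjusted p = 0.0737) or PLC5 siGALNT1 replicate 2 (2.78, adjusted p = 0.0508), and with siControl a call was gained without HA22T siControl replicate 1 (1.71, adjusted p = 0.0138).

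CLDN14, known from the inner ear and from calcium handling in the kidney, was dim in all groups, between -3.94 and -2.36, and was well above background on all 12 arrays. Its difference was 0.06 ± 0.33 (SE, adjusted p = 0.917) with siControl and 0.76 ± 0.33 (adjusted p = 0.123) with siGALNT1, with 95% intervals of -0.66 to 0.79 and 0.03 to 1.49.

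F11R, an adhesion molecule that helps to place the junction and its polarity complex, read -0.27, 0.45 and 0.75 in HA22T and 2.30, 2.40 and 2.34 in PLC5 with siControl. With siGALNT1 it read -1.22, 0.21 and 0.06 in HA22T and 2.30, 2.31 and 1.88 in PLC5. The PLC5 arrays lay closer together than the HA22T arrays, of which replicate 1 was lowest with both siRNAs. F11R was 4.10-fold lower in HA22T with siControl (-2.04 ± 0.39, SE, adjusted p = 0.00283) and 5.59-fold lower with siGALNT1 (-2.48 ± 0.39, adjusted p = 0.000779). Its second probe gave -3.08 ± 0.65 (adjusted p = 0.00504) and -3.24 ± 0.65 (adjusted p = 0.00381), the same direction and a wider difference.

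OCLN, which spans the membrane beside the claudins, overlapped between the lines. It read -0.69, -0.03 and 0.55 in HA22T and 0.81, 0.33 and 0.74 in PLC5 with siControl, and -0.62, 0.46 and 0.73 against 0.63, 1.09 and 0.83 with siGALNT1. The difference was -0.68 ± 0.40 (SE, adjusted p = 0.269, 95% interval -1.55 to 0.19) with siControl and -0.66 ± 0.40 (adjusted p = 0.264, 95% interval -1.53 to 0.22) with siGALNT1. Both values rest in part on HA22T replicate 1: without it the difference was -0.37 with siControl and -0.25 with siGALNT1, and over all arrays left out singly it ran from -0.98 to -0.37 and from -0.93 to -0.25. On its second probe every HA22T array was below every PLC5 array within each siRNA, with differences of -0.50 ± 0.31 (adjusted p = 0.295) and -0.92 ± 0.31 (adjusted p = 0.0533), neither past the threshold.

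TJP1, the ZO-1 scaffold of the plaque, read -0.92, -1.26 and -1.29 in HA22T and -1.91, -1.64 and -1.69 in PLC5 with siControl. With siGALNT1 the values were -1.55, -1.67 and -1.45 against -1.84, -1.15 and -1.77, and the lines overlapped. The difference was 0.59 ± 0.25 (SE, adjusted p = 0.127, 95% interval 0.03 to 1.14) with siControl, where all HA22T arrays were higher, and 0.03 ± 0.25 (adjusted p = 0.947, 95% interval -0.52 to 0.58) with siGALNT1. Arrays of the lines did not overlap in 6 of 9 members with siControl, beside 47.5% of genes with 6 values, and in 6 of 9 with siGALNT1, beside 45% of such genes, where CLDN4 had 4 values.

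**Figure D2:**
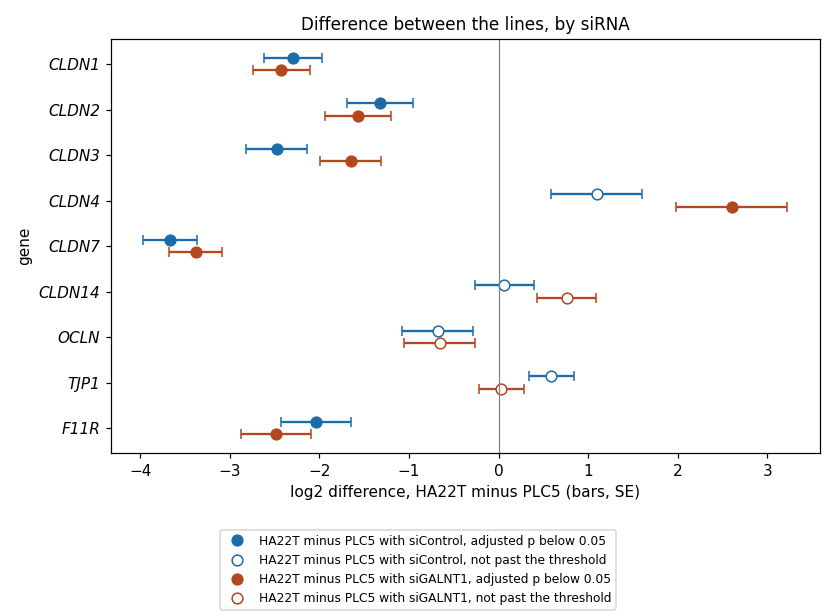
Difference between the lines for each of the 9 members (x axis, log2, HA22T minus PLC5, with bars of 1 SE), with siControl in blue and siGALNT1 in red, filled where the adjusted p in limma was below 0.05. CLDN1, CLDN2, CLDN3, CLDN7 and F11R lie left of 0 with both siRNAs and CLDN4 lies right of it.

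All HA22T arrays and PLC5 replicate 1 of each siRNA were on slide 1, and PLC5 replicates 2 and 3 were on slide 2. Within slide 1, where PLC5 has 1 array per siRNA, all 5 members called with siControl and all 6 called with siGALNT1 had the same direction, with log2 sizes of 1.99 to 3.96 and 1.78 to 3.55. For these members no HA22T array overlapped a PLC5 array of the same siRNA. The shared direction was therefore fixed beforehand and does not test an effect of the slide. With the slide as a block, 5 and 6 members were again called.

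The siRNA comparison asked whether GALNT1 knockdown moved these genes within a line. In HA22T no member was called, 0 of 9, beside 0% of 16967 genes, and none had an unadjusted p below 0.05 in limma, a level that 2.99% of 36327 probes passed. By the methods' t-test 1 member, TJP1, had an unadjusted p below 0.05, beside 1506 of 36327 probes, and 0 members had an adjusted p below 0.05. In PLC5 the count was again 0 of 9, beside 0% of 17316 genes. No member had an unadjusted p below 0.05 in limma, against 1.33% of 38070 probes, or by the methods' t-test, against 737 of 38070 probes. The same rule did not call GALNT1 itself by its brighter probe, at -5.10 in HA22T and -3.72 in PLC5. A count of 0 therefore does not show that the members were unchanged. The median difference of the members was 0.25 in HA22T and -0.06 in PLC5, against -0.10 and 0.04 over all genes tested.

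The sizes in HA22T ran from -0.63 for F11R to 0.76 for CLDN4, which had 2 siGALNT1 arrays. Both ends moved when arrays were left out singly, CLDN4 from 0.15 without siControl replicate 1 to 1.22 without siControl replicate 2, and F11R from -0.92 without siControl replicate 1 to -0.18 without siGALNT1 replicate 1. For CLDN3 the siGALNT1 arrays at -1.13, -1.02 and -1.86 overlapped the siControl arrays at -2.24, -2.13 and -1.77, with a difference of 0.71 ± 0.34 (SE, adjusted p = 1.00, 95% interval -0.03 to 1.46). CLDN14 read -2.36, -2.36 and -3.17 with siGALNT1 and -3.03, -3.11 and -3.65 with siControl, a difference of 0.64 ± 0.33 (95% interval -0.09 to 1.36). TJP1 was the member whose HA22T groups did not overlap, 1 of 9 beside 8.89% of genes with 6 values, with all siGALNT1 arrays lower and a difference of -0.40 ± 0.25 (95% interval -0.95 to 0.16). CLDN1 differed by 0.01 ± 0.32 (95% interval -0.69 to 0.71) and CLDN7 by 0.28 ± 0.30 (95% interval -0.38 to 0.94). These intervals bound the differences and do not show that the groups were equal. Same-numbered HA22T arrays deviated together, so the differences within pairs are given too. Of the 8 members with 3 pairs, 5 had the same sign in all of them, beside 35.1% of 15246 genes. CLDN14 differed by 0.67, 0.75 and 0.48 and OCLN by 0.07, 0.49 and 0.18, while TJP1 differed by -0.63, -0.41 and -0.15, F11R by -0.95, -0.24 and -0.70 and CLDN2 by -0.34, -0.58 and -0.11. With the replicate number as a block none was called. CLDN14 (0.64 ± 0.26, SE) and F11R (-0.63 ± 0.23) then had an unadjusted p below 0.05, each with a limma adjusted p of 0.849. Under this block, 1961 of the 36034 counted probes passed that unadjusted level in HA22T. CLDN4, with 2 pairs, then differed by 0.15 ± 0.28.

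In PLC5 the differences ran from -0.75 ± 0.57 (SE) for CLDN4, with 2 siGALNT1 arrays both below the siControl arrays, to 0.22 ± 0.40 for OCLN. With the non-uniform spots kept the CLDN4 difference was -0.20, and with the deposited table -0.19. CLDN4 was the member whose PLC5 groups did not overlap, 1 of 9 beside 3.62% of genes with 6 values, and it had 5. The widest 95% interval was that of CLDN4, -2.03 to 0.53, and the interval of CLDN7 was -0.67 to 0.65 around a difference of -0.01. CLDN1 differed by 0.14 ± 0.32 and CLDN3 by -0.11 ± 0.34.

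The siRNA effect did not differ detectably between the lines: 0 of 9 members were called, beside 0% of 17893 genes, and none had an unadjusted p below 0.05, against 2.43% of 39100 probes. The largest difference of effects was that of CLDN4, 1.51 ± 0.80 (SE, adjusted p = 0.988, 95% interval -0.31 to 3.32), followed by CLDN3 at 0.82 ± 0.48 (95% interval -0.23 to 1.88).

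**Figure D3:**
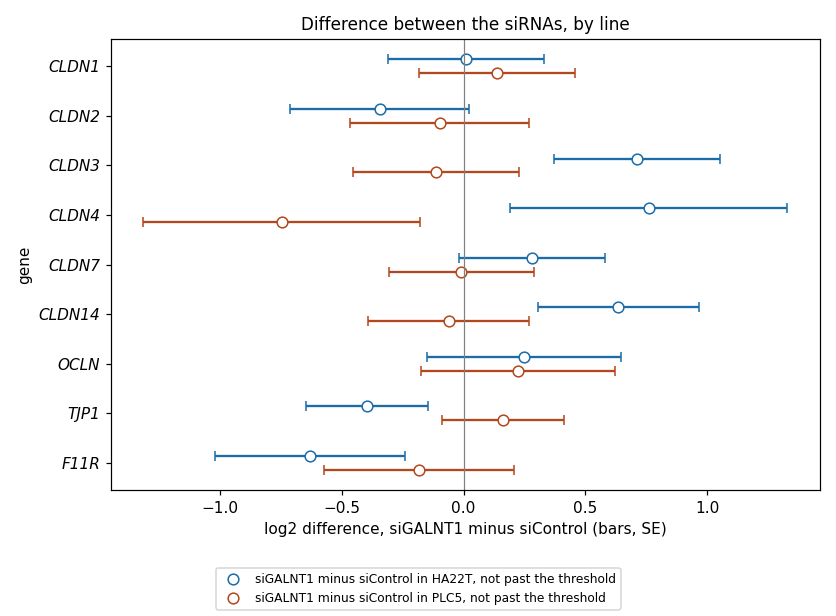
Difference between the siRNAs for each of the 9 members (x axis, log2, siGALNT1 minus siControl, with bars of 1 SE), in HA22T in blue and in PLC5 in red. All points are open, since no member had an adjusted p below 0.05, and they lie between -0.75 and 0.76.

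The other genes of the junction moved in both directions between the lines. The called counts of each list below stand beside 26.6% of all genes called between the lines with each siRNA. Of 18 other claudins, 12 were counted with siControl, and CLDN6, a claudin of embryonic epithelia, was called higher in HA22T (2.43 ± 0.26, SE) while CLDN23 (-1.52 ± 0.30) and CLDN15 (-0.94 ± 0.28) were called lower. CLDN24, whose sequence is close to that of CLDN22, also passed the threshold (-2.80 ± 0.53), but on 1 HA22T and 2 PLC5 values, so that the lone array is assumed to vary like the other groups. With siGALNT1 the single CLDN24 values were 3.85 in HA22T and 3.75 in PLC5, and it was not counted. With siGALNT1, CLDN6 (1.85 ± 0.26) and CLDN23 (-1.98 ± 0.30) were called among 10 counted. The median of the list was -0.21 with siControl and 0.42 with siGALNT1.

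Of 12 other membrane proteins, 4 of 9 counted were called with siControl and 4 of 10 with siGALNT1. Of the angulins, which mark the corners where 3 cells meet, LSR was lower in HA22T (-4.81 ± 0.44, SE, and -5.42 ± 0.44 with siGALNT1) and ILDR2 was higher (5.38 ± 0.55 and 4.13 ± 0.55). ILDR2 was well above background on 1 of 3 PLC5 siControl and 2 of 3 PLC5 siGALNT1 arrays, and LSR on 1 of 3 HA22T siGALNT1 arrays. MARVELD2, or tricellulin, a relative of occludin at the same corners, was lower (-1.13 ± 0.34 and -1.48 ± 0.34), as was the adhesion receptor CXADR (-2.52 ± 0.29 and -2.69 ± 0.29). The list's median was -0.13 and -0.11.

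Of 22 plaque and polarity proteins, 21 were counted, with 4 called higher and 4 lower with siControl and 3 higher and 8 lower with siGALNT1. Lower in HA22T with siControl were the plaque protein cingulin, CGN (-2.79 ± 0.28, SE), the polarity scaffold PATJ (-2.27 ± 0.54) and the scaffolds MAGI1 (-1.28 ± 0.36) and MAGI2 (-1.27 ± 0.29), and CGN and PATJ were each well above background on 1 of 3 HA22T arrays. Higher were AMOTL2, of the angiomotin family (4.19 ± 0.32), YBX3, the ZO-1-associated transcription factor (1.72 ± 0.27), PALS1, the polarity partner of PATJ (1.51 ± 0.24), and the multi-PDZ scaffold MPDZ (1.03 ± 0.25). With siGALNT1, PATJ (-2.98 ± 0.54) was well above background on no HA22T array, which makes it at least 3.06-fold lower there, and AMOTL1 (-2.32 ± 0.67, well above background on 1 of 3 HA22T arrays) and AMOT (-1.71 ± 0.48) were also called lower. The list's median was -0.30 and -0.36.

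**Figure D4:**
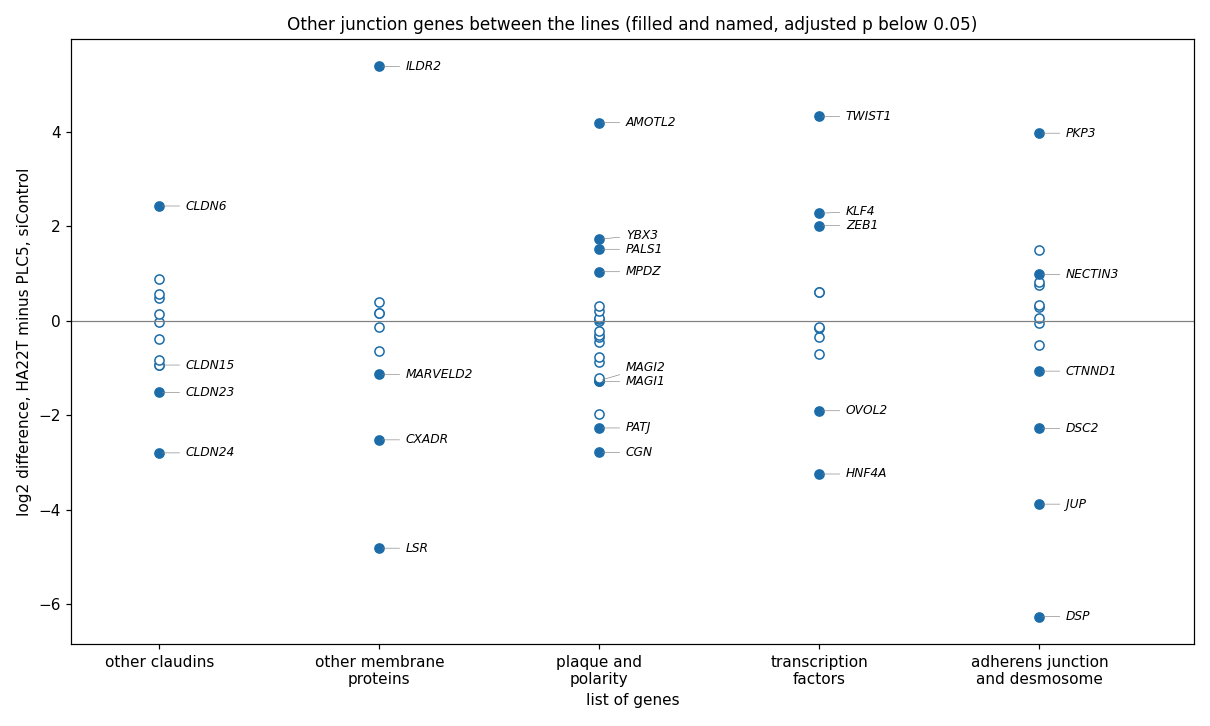
Difference between the lines with siControl (y axis, log2, HA22T minus PLC5) of the counted genes in 5 lists of other junction genes and regulators (x axis), a point for each gene, filled and named where the adjusted p in limma was below 0.05. Named genes lie on both sides of 0 in every list.

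Of 13 transcription factors known to act on junction genes, 11 were counted and the same 5 were called with both siRNAs. TWIST1 (4.32 ± 0.30, SE, with both) and ZEB1 (2.01 ± 0.30 and 1.52 ± 0.30), which repress epithelial genes, were higher in HA22T, as was KLF4 (2.27 ± 0.30 and 1.53 ± 0.30), a zinc-finger factor of epithelial cells. HNF4A, the hepatocyte factor that drives liver epithelial genes (-3.24 ± 0.43 and -2.92 ± 0.43), and OVOL2 (-1.91 ± 0.36 and -1.55 ± 0.32), which keeps cells epithelial, were lower. The OVOL2 value with siControl rests on 2 PLC5 arrays, and HNF4A is also in the list of hepatocyte markers. SNAI1 and ZEB2 were called with neither siRNA. SNAI1 averaged -0.49 in HA22T and -0.33 in PLC5 with siControl, and -0.39 and -0.33 with siGALNT1. The median of the list was -0.14 and 0.17.

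In the neighbouring adherens junction and desmosome, 6 of 14 genes counted were called with siControl and 8 of 13 with siGALNT1. The desmosome linker DSP was well above background on no HA22T array and was at least 40.4-fold lower there with siControl and at least 31.1-fold lower with siGALNT1. JUP, or plakoglobin (-3.88 ± 0.32, SE), DSC2, a desmosomal cadherin (-2.28 ± 0.39, well above background on 2 of 3 HA22T arrays), and CTNND1, or p120-catenin (-1.07 ± 0.23), were lower with siControl, and PKP3, a desmosome plaque protein (3.97 ± 0.32), and the nectin NECTIN3 (0.98 ± 0.24) were higher. With siGALNT1, CDH2, or N-cadherin, was called higher as well (2.02 ± 0.46, from 2 HA22T and 3 PLC5 arrays). E-cadherin, CDH1, was near background in both lines, with 1 or 2 of 3 arrays well above background in each group. In none of these 5 lists was a gene called for the siRNA in limma in HA22T or in PLC5, and 1 gene, a claudin in HA22T, had an unadjusted p below 0.05.

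Across the 12 arrays CLDN1, CLDN2, CLDN3, CLDN7 and F11R moved together, with pairwise Pearson correlations of 0.82 to 0.95, and CLDN4 moved against them, at -0.83 to -0.68 over 10 arrays. The 12 arrays share 2 lines and a common scaling, so these values follow mostly the difference between the lines. Among 15930 genes, those most like CLDN7 over 12 arrays were SAGE1 (r = 0.997), MAGEA6 (r = 0.996) and CP (r = 0.995), the last of which makes the liver's plasma protein ceruloplasmin. CLDN1 was most like VAV3 (r = 0.995), MICAL1 (r = 0.994) and ERBB3 (r = 0.992). F11R was most like CD24 (r = 0.988), PGPEP1 (r = 0.981) and CEMIP2 (r = 0.981), and CLDN3 was most like PCSK6 (r = 0.978), IL27 (r = 0.975) and SYN3 (r = 0.973). For CLDN2 the closest were SOHLH2 (r = 0.973), STT3A (r = 0.965) and FYB1 (r = 0.964), and for CLDN4, over 10 arrays, SUN2 (r = 0.976), SEMA5A (r = 0.974) and ADM (r = 0.970). The members with no called difference had lower best values: OCLN with DUSP1 (r = 0.962), TJP1 with CACNB1 (r = 0.949) and CLDN14 with NHLRC4 (r = 0.945).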

How the data were processed

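RNA of 12 samples was hybridised to one-colour Agilent arrays, and the deposited scanner files were made by the authors with Feature Extraction 10.5.1.1, per the file headers. The deposited intensities are per spot, and the authors' software had subtracted background in the processed signal, per the file headers. The deposited log2 table of the same arrays holds the authors' values scaled to the 75th percentile and was used as an alternative. Probes were named from the RefSeq transcript in the file through RefSeq's table of GRCh38.p14, and 28174 of 50599 matched a symbol. Non-uniform outlier spots (489 to 3633 per array) were left out, 0 spots were saturated, and log2 processed signals were centred on each array's 75th percentile over all non-control spots. All 4 groups were fitted together in limma 3.58.1 (R 4.3.3, lmFit and eBayes), with Benjamini-Hochberg adjustment over probes well above background on at least 3 of 6 arrays, and ± in a difference is its standard error. Each gene is represented by its brightest probe with a value in every group, and genes from the wider lists were named by size, up to 4 per comparison and direction among those called. The 9 members and all lists were chosen with earlier results of these data known, and 1 gene of the plaque list is not reported here. Exact permutation of 3 against 3 arrays cannot go below p = 0.1, so the tests rest on limma. The number of arrays limits the precision. On simulated data for HA22T (31496 probes, 200 changed), 16%, 62%, 90% and 100% of log2 changes of 1, 2, 3 and 5 were recovered, with 3 of 137 calls false. For the lines with siControl (32409 probes, 200 changed) these shares were 2%, 58%, 94% and 100%, with 3 of 130 calls false. In the data, 1 of 36327 probes was called for the siRNA in HA22T and 8368 of 38011 between the lines with siControl. The brighter GALNT1 probe, at -5.10 in HA22T, was not called. The adjustment depends on how many probes change, so these shares cannot be carried over to the data.

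Replicate numbers were checked as pairs within a line: deviations from the group mean of same-numbered siControl and siGALNT1 arrays correlated at 0.51, 0.27 and 0.32 in HA22T, so the numbers paired those samples, as seen in the values, and at 0.57, 0.01 and 0.18 in PLC5. Between the lines, same-numbered arrays correlated at 0.26, 0.26 and -0.04 with siControl and at 0.07, 0.02 and -0.17 with siGALNT1. Alternatives were background correction (normexp, offset 50), scaling, filters, the slide and replicate as blocks, the prior, the methods' t-test and leaving out each array.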

Additional observations from a re-analysis of the deposited data

How the results depend on the processing

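No called difference between the lines changed sign under any of the 25 alternatives fitted. The number of members called was 5 with siControl and 6 with siGALNT1 as reported, 4 and 5 with normexp, 4 and 4 with probes well above background on all 6 arrays, and 4 to 6 and 5 to 6 when each array was left out. With the methods' t-test after Benjamini-Hochberg adjustment it was 4 and 2, with adjusted p of 0.0643, 0.0547, 0.0618 and 0.0987 for CLDN3, F11R, CLDN2 and CLDN4 with siGALNT1. At the fold and unadjusted p threshold of the methods it was 6 and 6. By that t-test 12178 of 38011 probes with siControl and 10680 of 36741 with siGALNT1 had an unadjusted p below 0.05. How many of these probes also passed the fold was not counted. Over all probes, 8407 were called with siGALNT1 in limma, 42.8% of them higher in HA22T. After adjustment the methods' t-test called 6330 with siControl and 3967 with siGALNT1. Leaving out PLC5 siControl replicate 2 or 3 gave 5559 or 5468 in place of 8368 with siControl, and leaving out PLC5 siGALNT1 replicate 2 gave 5462, which has fewer samples. With the percentile taken over unflagged spots, an alternative added after seeing the data, 59.2% of calls were higher with siGALNT1 and the median difference of all probes between the lines was 0.15 with siControl and 0.32 with siGALNT1 in place of 0.04 and 0.10, with 5 and 6 members called. With the replicate number as a block, 0 members were called for the siRNA in either line. Between the lines 5 and 6 members were called, though same-numbered arrays of the lines showed no clear pairing. The block changed no call of a member, while 0 probes in place of 1 were called for the siRNA in HA22T.

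Differences of members that changed sign were all uncalled. CLDN1 in HA22T was -0.0232 with normexp, -0.0524 with median scaling, -0.0291 with quantile normalization and -0.00556 with the deposited table. In PLC5, normexp gave 0.000861 for CLDN2, 0.0412 for CLDN3, 0.0561 for CLDN7 and 0.15 for CLDN14, and CLDN7 was 0.00404 with median scaling, 0.0283 with quantile normalization and 0.0021 with the deposited table. The difference of effects for OCLN was -0.0493 with median scaling and -0.000525 with the deposited table. Leaving out each array gave, in HA22T, -0.29 to 0.17 for CLDN1 and -0.0656 to 0.65 for OCLN. In PLC5 it gave -0.0849 to 0.27 for CLDN1, -0.36 to 0.25 for CLDN2, -0.35 to 0.14 for CLDN3, -0.17 to 0.13 for CLDN7, -0.29 to 0.21 for CLDN14 and -0.0556 to 0.29 for TJP1. For the difference of effects it gave -0.43 to 0.0941 for CLDN1, -0.59 to 0.0145 for CLDN2, -0.29 to 0.43 for OCLN and -0.74 to 0.00392 for F11R. Between the lines it gave -0.0538 to 0.26 for CLDN14 with siControl and -0.0958 to 0.25 for TJP1 with siGALNT1. The cause was not tested.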
